A study of Mus musculus with 9 samples.

Results

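Death receptors and other receptors of the TNF receptor family, with the caspase and the caspase inhibitor that work directly below them, were followed in mouse primary calvarial pre-osteoblasts, cells of the skull bone that mature into osteoblasts in culture. The genes were taken by symbol: Fas, Tnfrsf21, Tnfrsf1a, Tnfrsf10b, Ngfr, Tnfrsf12a, Tnfrsf1b, Tnfrsf19, Casp8 and Cflar. All 10 were among the 40213 symbols counted in every library, and all 10 passed the filter on low counts. The cells came from 3-day-old wild-type pups of ICR mice. They were grown in osteogenic medium with 50 μg/ml ascorbic acid and 5 mM β-glycerophosphate, and were infected on day 3 with an adenovirus. Ad-Hif2a carried Hif2a (gene Epas1), Ad-Hif1a carried Hif1a, and Ad-C was the control virus, with 3 libraries of total RNA each, all from day 6. These factors are the oxygen-regulated subunits of the hypoxia-inducible factors, and here they were expressed in cells kept in ordinary oxygen. The dose of virus used for the sequenced cells and the insert of Ad-C are not given in the sources used here. The study used the comparison to ask which genes each factor governs in osteoblasts.

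Receptors of this family are membrane proteins that bind trimeric ligands of the TNF family or, for a few members, other proteins. Fas, Tnfrsf1a, Tnfrsf10b, Tnfrsf21 and Ngfr carry an intracellular death domain. Fas, Tnfrsf1a and Tnfrsf10b can assemble adaptors that activate the initiator caspase Casp8, and Cflar, a catalytically inactive relative of Casp8, limits that activation. Receptors without a death domain, such as Tnfrsf1b, Tnfrsf12a and Tnfrsf19, bind TRAF adaptors and feed NF-kB and kinase signalling. In bone the family is best known for RANKL, its receptor RANK and the decoy osteoprotegerin, which set osteoclast formation, and TNF and Fas ligand are known to induce apoptosis of osteoblasts.

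The promoters of the 3 receptors with the largest increases and of the receptor that decreased are shown because HIF proteins bind short elements with an ACGTG or GCGTG core. Each line holds 250 bases upstream of an annotated start from RefSeq (GRCm38.p6, not the GRCm39 build of the counts), written 5′ to 3′ on the strand of the gene, with matches to ACGTG or GCGTG on either strand in capitals. Tnfrsf19 has 2 annotated starts, and both are given.
Fas, chr19:34290409-34290658, plus strand: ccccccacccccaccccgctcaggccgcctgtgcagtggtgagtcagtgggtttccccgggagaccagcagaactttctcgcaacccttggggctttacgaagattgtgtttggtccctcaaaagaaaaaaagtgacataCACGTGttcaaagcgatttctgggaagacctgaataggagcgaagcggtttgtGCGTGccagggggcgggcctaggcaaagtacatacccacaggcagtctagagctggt
Tnfrsf21, chr17:43016305-43016554, plus strand: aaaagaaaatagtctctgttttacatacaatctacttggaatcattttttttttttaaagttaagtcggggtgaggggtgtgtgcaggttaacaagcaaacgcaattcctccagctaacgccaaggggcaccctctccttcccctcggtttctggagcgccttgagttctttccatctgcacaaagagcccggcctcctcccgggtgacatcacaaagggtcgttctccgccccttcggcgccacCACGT
Tnfrsf12a, chr17:23677450-23677699, minus strand: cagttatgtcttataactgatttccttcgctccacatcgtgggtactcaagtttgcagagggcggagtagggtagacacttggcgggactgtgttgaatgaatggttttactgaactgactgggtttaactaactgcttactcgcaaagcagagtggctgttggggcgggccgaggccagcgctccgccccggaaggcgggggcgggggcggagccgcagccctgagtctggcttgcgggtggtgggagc
Tnfrsf19, first start, chr14:61037988-61038237, minus strand: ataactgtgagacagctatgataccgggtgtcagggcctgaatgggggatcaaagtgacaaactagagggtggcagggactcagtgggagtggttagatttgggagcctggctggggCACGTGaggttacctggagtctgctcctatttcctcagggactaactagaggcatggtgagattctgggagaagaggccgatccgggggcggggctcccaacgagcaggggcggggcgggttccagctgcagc
Tnfrsf19, second start, chr14:61046856-61047105, minus strand: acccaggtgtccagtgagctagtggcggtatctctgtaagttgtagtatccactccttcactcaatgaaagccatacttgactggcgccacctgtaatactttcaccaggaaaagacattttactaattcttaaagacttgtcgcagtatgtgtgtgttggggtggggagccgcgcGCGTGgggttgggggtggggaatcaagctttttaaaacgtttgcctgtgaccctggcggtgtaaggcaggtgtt
The Fas window holds a CACGTG that begins at position -110 and reads as ACGTG on both strands, and a GCGTG at position -57 (positions run back from the annotated start). In the Tnfrsf21 window the single match, ACGTG on the minus strand, begins at position -5. The first Tnfrsf19 window has a CACGTG at position -133, the second a GCGTG at position -74, and the Tnfrsf12a window has no match. The 2 receptors with the largest increases and the receptor that fell all held the letters, and Tnfrsf12a, which also rose, did not. Matches were also found upstream of Ngfr (2) and Tnfrsf1b (1), and none upstream of Tnfrsf1a, Casp8 or Cflar. Of all 32851 promoters in the table, 38.6% hold ACGTG or GCGTG in the same 250 bases (16.6% ACGTG and 28.2% GCGTG), and the NF-kB consensus sequence, found in 7.25% of them, was in none of the windows of the 9 genes that could be matched. A match is a string of letters, not a measured binding site.

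Levels are given as CPM, a gene's counts relative to the library total after scaling by TMM factors, which correct for differences in library composition, and differences as log2 fold changes from an edgeR quasi-likelihood fit with Benjamini-Hochberg adjustment over the 14413 genes tested. A gene is said to have risen or fallen where its adjusted p was below 0.05. Library totals ran from 14372589 to 17517897 counts with Ad-Hif2a, from 16239634 to 17696512 with Ad-Hif1a and from 17444224 to 18623403 with Ad-C. Epas1 measured 1990, 2180 and 822 CPM with Ad-Hif2a, 407, 486 and 678 CPM with Ad-Hif1a, against 47.1, 41.8 and 48.7 CPM with Ad-C, and Hif1a measured 574, 584 and 447 CPM, 1240, 1930 and 2320 CPM, and 193, 190 and 186 CPM in the same groups. Each virus thus raised its own gene and, to a lower level, the other one, and counts from the vector and from the cell's own gene cannot be told apart. Ad-Hif2a replicate 3 and Ad-Hif1a replicate 1 stood apart from the other libraries of their groups on the second principal component (56.5 and 11.4, against -35.7 to -15.4), had less mitochondrial RNA (2.83% and 2.95%, against 3.69% to 5.77% in the other Hif libraries), and had the lowest level of the gene their own virus carried. For the 10 genes and the pathway lists, a call or a sign that changed without these 2 libraries, or a count that moved by over 1.5 times, is given beside the result. The study defines its n as independent experiments or mice, but the labels tie no library to a culture or a litter, and p-values measure the spread between these libraries.

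4 of the receptors rose with Ad-Hif2a (Fas, Tnfrsf21, Tnfrsf12a and Tnfrsf1b), 3 of them also with Ad-Hif1a, and Tnfrsf19 fell with both. Against Ad-C, 4 of 10 genes were higher and 1 was lower with Ad-Hif2a, where 7.87% of all genes tested were higher and 7.72% lower. With Ad-Hif1a, 3 of 10 were higher and 1 was lower, where 6.04% of all genes were higher and 5.22% lower. The median log2 fold change over the 10 genes was 0.16 with Ad-Hif2a and 0.12 with Ad-Hif1a, with 0.01 over all genes tested in both comparisons. The 3 Ad-C libraries serve as the reference in each of these comparisons, so the counts are not independent of each other. Without Ad-Hif1a replicate 1 and Ad-Hif2a replicate 3, 6 genes passed with Ad-Hif2a and 5 with Ad-Hif1a, Tnfrsf1a being the addition in each, while the share of all genes called in either direction was 28.7% and 27.6%, against 15.6% and 11.3% with all libraries. Without Ad-C replicate 1 or without Ad-C replicate 3, only 3 genes passed with Ad-Hif2a (Fas, Tnfrsf21 and Tnfrsf19), where 4.67% and 5.23% of all genes were called.

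**Figure D1:**
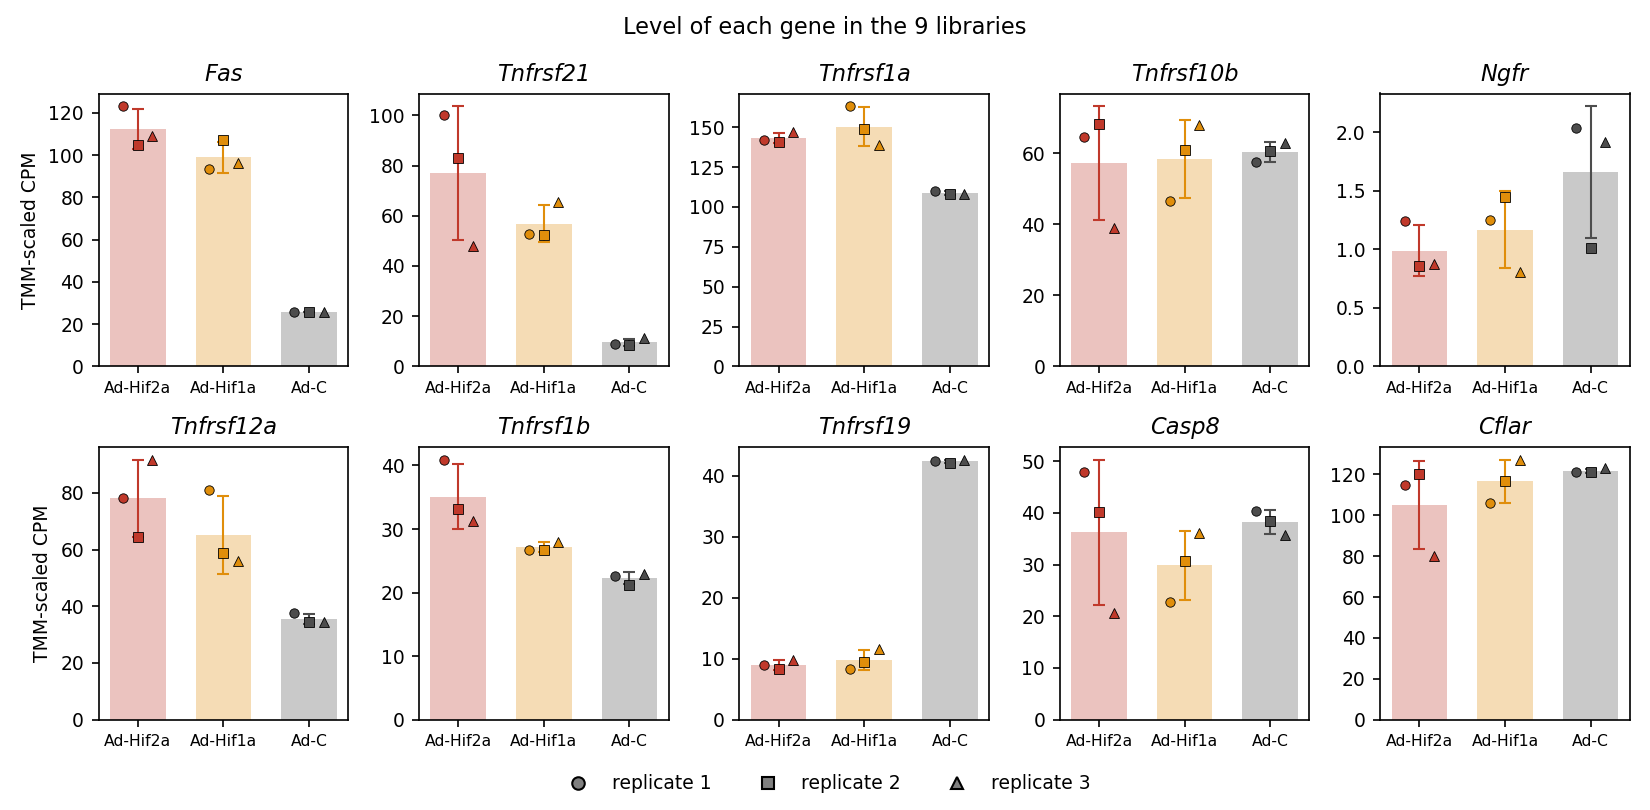
TMM-scaled CPM (linear axis from 0) of the 10 genes in the 9 libraries, with Ad-Hif2a, Ad-Hif1a and Ad-C from left to right. Bars are group means, whiskers the SD of 3 libraries and points the single libraries, and Fas and Tnfrsf21 lie far above Ad-C in all 6 Hif libraries while Tnfrsf19 lies far below.

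Among the death domain receptors, Fas, which binds Fas ligand and recruits Fadd and Casp8, showed the most even increase. It measured 123, 105 and 109 CPM with Ad-Hif2a, 93.4, 107 and 96.3 CPM with Ad-Hif1a, against 25.9, 25.6 and 25.8 CPM with Ad-C. The 6 Hif libraries did not overlap with the Ad-C libraries, whose SD was 0.139 CPM. The log2 fold change was 2.13 with Ad-Hif2a (SE 0.15, 4.36-fold, adjusted p = 0.00025) and 1.94 with Ad-Hif1a (SE 0.15, 3.84-fold, adjusted p = 0.000429). The libraries of the 2 Hif viruses overlapped, with a log2 difference of 0.18 between Ad-Hif2a and Ad-Hif1a (95% interval -0.15 to 0.51, adjusted p = 1). Both increases passed under all 17 alternatives that were run.

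Tnfrsf21, also called DR6, a death domain receptor known from neurons and immune cells, had the largest fold change of the 10 genes. Its levels were 100, 82.9 and 47.8 CPM with Ad-Hif2a, 52.8, 52.4 and 65.5 CPM with Ad-Hif1a, against 8.94, 8.63 and 11.3 CPM with Ad-C. Ad-Hif2a replicate 3 was the lowest of its group, below every Ad-Hif1a library, but still above every Ad-C library. The log2 fold change was 2.98 with Ad-Hif2a (SE 0.31, 7.91-fold, adjusted p = 0.00136) and 2.56 with Ad-Hif1a (SE 0.30, 5.91-fold, adjusted p = 0.00287), and both passed under all 17 alternatives. Between Ad-Hif2a and Ad-Hif1a the log2 difference was 0.42 (95% interval -0.25 to 1.10, adjusted p = 1), and without the 2 libraries that stood apart it was 0.74 (adjusted p = 0.204).

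Tnfrsf1a (TNFR1), the TNF receptor with a death domain, was the receptor with the highest level per kilobase in Ad-C cells. It measured 142, 141 and 147 CPM with Ad-Hif2a, 163, 149 and 139 CPM with Ad-Hif1a, against 110, 108 and 108 CPM with Ad-C. Every Hif library was above every Ad-C library, yet neither difference passed, the log2 fold changes being 0.40 (SE 0.13, adjusted p = 0.0854) for Ad-Hif2a and 0.46 (SE 0.13, adjusted p = 0.0703) for Ad-Hif1a. Without Ad-Hif1a replicate 1 and Ad-Hif2a replicate 3, the adjusted p was 0.0348 for Ad-Hif2a and 0.0157 for Ad-Hif1a. The call also appeared for both viruses in the fit with no replicate block and in DESeq2, and over all alternatives the adjusted p ran from 0.026 to 0.343 for Ad-Hif2a and from 0.00667 to 0.353 for Ad-Hif1a.

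Tnfrsf10b, the mouse death receptor for TRAIL, did not pass in either comparison. Its levels were 64.6, 68.1 and 38.9 CPM with Ad-Hif2a, 46.5, 60.9 and 68 CPM with Ad-Hif1a, against 57.4, 60.7 and 62.9 CPM with Ad-C. The low values belonged to Ad-Hif2a replicate 3 and Ad-Hif1a replicate 1, and the other Hif libraries were within or just above the range of Ad-C. The log2 fold change was -0.09 with Ad-Hif2a (95% interval -0.66 to 0.49, adjusted p = 0.815) and -0.05 with Ad-Hif1a (95% interval -0.62 to 0.53, adjusted p = 0.913), and both intervals hold changes in either direction. Without the 2 libraries that stood apart the values were 0.19 (adjusted p = 0.295) and 0.07 (adjusted p = 0.723).

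Ngfr, the p75 neurotrophin receptor, was close to the limit of detection, with 21, 15 and 12 counts in the Ad-Hif2a libraries, 22, 25 and 13 in the Ad-Hif1a libraries and 37, 18 and 36 in the Ad-C libraries. In CPM these were 1.24, 0.857 and 0.873 with Ad-Hif2a, 1.25, 1.45 and 0.807 with Ad-Hif1a and 2.04, 1.01 and 1.92 with Ad-C. The groups overlapped, and a difference was not detectable at this depth, the log2 fold changes being -0.74 (SE 0.40, adjusted p = 0.225) for Ad-Hif2a and -0.48 (SE 0.39, adjusted p = 0.468) for Ad-Hif1a.

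Of the receptors without a death domain, Tnfrsf12a (Fn14), the receptor for TWEAK, rose with both viruses. It measured 78.1, 64.6 and 91.7 CPM with Ad-Hif2a, 81, 58.9 and 55.9 CPM with Ad-Hif1a, against 37.5, 34.4 and 34.6 CPM with Ad-C. All Hif libraries were above all Ad-C libraries, and the highest value in each Hif group came from the library that stood apart. The log2 fold change was 1.13 with Ad-Hif2a (SE 0.18, 2.19-fold, adjusted p = 0.00747) and 0.87 with Ad-Hif1a (SE 0.18, 1.82-fold, adjusted p = 0.025). Without both of those libraries the values were 0.98 (adjusted p = 2.09e-05) and 0.77 (adjusted p = 0.000276). The Ad-Hif1a call was lost on leaving out any 1 of the Ad-C libraries, Ad-Hif1a replicate 1 or Ad-Hif1a replicate 2 (adjusted p up to 0.175), and the Ad-Hif2a call on leaving out Ad-C replicate 1 or 3 (up to 0.0679).

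Tnfrsf1b (TNFR2), the second TNF receptor, which lacks a death domain and binds Traf2, rose with Ad-Hif2a. Its levels were 40.9, 33.1 and 31.3 CPM with Ad-Hif2a, 26.7, 26.7 and 28 CPM with Ad-Hif1a, against 22.6, 21.2 and 23 CPM with Ad-C. The 3 groups did not overlap. The log2 fold change was 0.65 with Ad-Hif2a (SE 0.16, 1.57-fold, adjusted p = 0.0308) and 0.29 with Ad-Hif1a (SE 0.16, adjusted p = 0.287). Between Ad-Hif2a and Ad-Hif1a it was 0.36 (95% interval 0 to 0.73, adjusted p = 1), so a difference between the viruses was not shown. The Ad-Hif2a call was lost under 8 of 17 alternatives, which were no filter on low counts, the fit of 6 libraries alone, and leaving out any 1 of the Ad-C libraries, Ad-Hif1a replicate 2, Ad-Hif2a replicate 1 or Ad-Hif2a replicate 2 (adjusted p up to 0.208).

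Tnfrsf19 (TROY), a receptor without a death domain that is expressed in mesenchymal and neural progenitors, was the single gene of the 10 that fell. It measured 8.9, 8.28 and 9.82 CPM with Ad-Hif2a, 8.38, 9.53 and 11.6 CPM with Ad-Hif1a, against 42.5, 42.1 and 42.6 CPM with Ad-C. The highest Hif library was far below the lowest Ad-C library, and the levels fell to 0.212 of Ad-C with Ad-Hif2a and to 0.23 of Ad-C with Ad-Hif1a, calls that held under all 17 alternatives. Ad-Hif2a and Ad-Hif1a overlapped, with a log2 difference of -0.12 (95% interval -0.50 to 0.26).

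**Figure D2:**
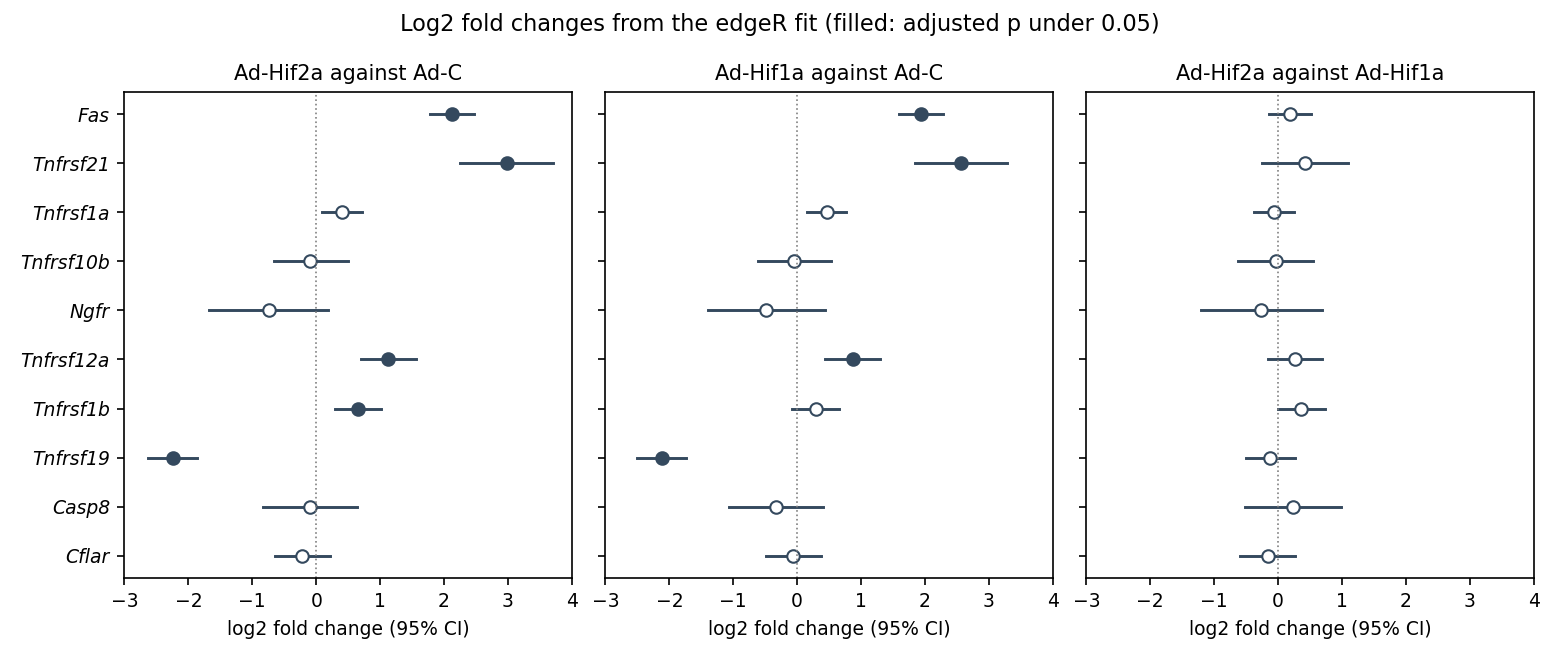
Log2 fold changes of the 10 genes with 95% confidence intervals, for Ad-Hif2a against Ad-C, Ad-Hif1a against Ad-C and Ad-Hif2a against Ad-Hif1a, with filled points where the adjusted p was below 0.05. The calls in the first panel are Fas, Tnfrsf21, Tnfrsf12a, Tnfrsf1b and Tnfrsf19, the second panel lacks Tnfrsf1b, and the third panel has no filled point.

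Directly below the death receptors, neither Casp8 nor Cflar passed in any comparison. Casp8 measured 47.9, 40.2 and 20.7 CPM with Ad-Hif2a, 22.8, 30.7 and 36.1 CPM with Ad-Hif1a, against 40.3, 38.5 and 35.7 CPM with Ad-C. The lowest value in each Hif group was again that of the library that stood apart, and the log2 fold change was -0.10 with Ad-Hif2a (SE 0.31, adjusted p = 0.834) and -0.33 with Ad-Hif1a (SE 0.31, adjusted p = 0.524). Without Ad-Hif2a replicate 3 the Ad-Hif2a value was 0.25, and without both libraries it was 0.20 (adjusted p = 0.303). Cflar measured 115, 120 and 80.3 CPM with Ad-Hif2a, 106, 117 and 127 CPM with Ad-Hif1a, against 121, 121 and 123 CPM with Ad-C. All Ad-Hif2a libraries were below all Ad-C libraries, by far the most in replicate 3. The log2 fold changes of Cflar were -0.22 (SE 0.18, adjusted p = 0.418) with Ad-Hif2a and -0.06 (SE 0.18, adjusted p = 0.857) with Ad-Hif1a. Without both libraries that stood apart they were -0.02 (adjusted p = 0.941) and 0.00 (adjusted p = 0.989).

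Since Cflar opposes Casp8, their ratio was taken within each library, where the scaling factor cancels. The ratio of Cflar to Casp8 counts was 2.4, 2.99 and 3.87 with Ad-Hif2a, 4.64, 3.82 and 3.51 with Ad-Hif1a and 2.99, 3.14 and 3.45 with Ad-C. The Ad-Hif1a libraries were the highest relative to Ad-C, with a log2 difference of 0.31, the smallest two-sided p that an exact permutation test of 3 against 3 can give (p = 0.1, adjusted over the 6 ratio comparisons 0.3). With Ad-Hif2a the libraries lay on both sides of Ad-C (log2 difference -0.07, exact permutation p = 0.7). The ratio of Tnfrsf1b to Tnfrsf1a counts was 0.287, 0.235 and 0.213 with Ad-Hif2a, 0.164, 0.179 and 0.202 with Ad-Hif1a and 0.205, 0.195 and 0.214 with Ad-C. It separated Ad-Hif2a from Ad-Hif1a completely (log2 difference 0.43, exact permutation p = 0.1, adjusted 0.3), and overlapped with Ad-C for each virus (0.25 with Ad-Hif2a and -0.18 with Ad-Hif1a, exact permutation p = 0.2 for both). With 3 libraries a group none of these ratios could have passed 0.05.

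**Figure D3:**
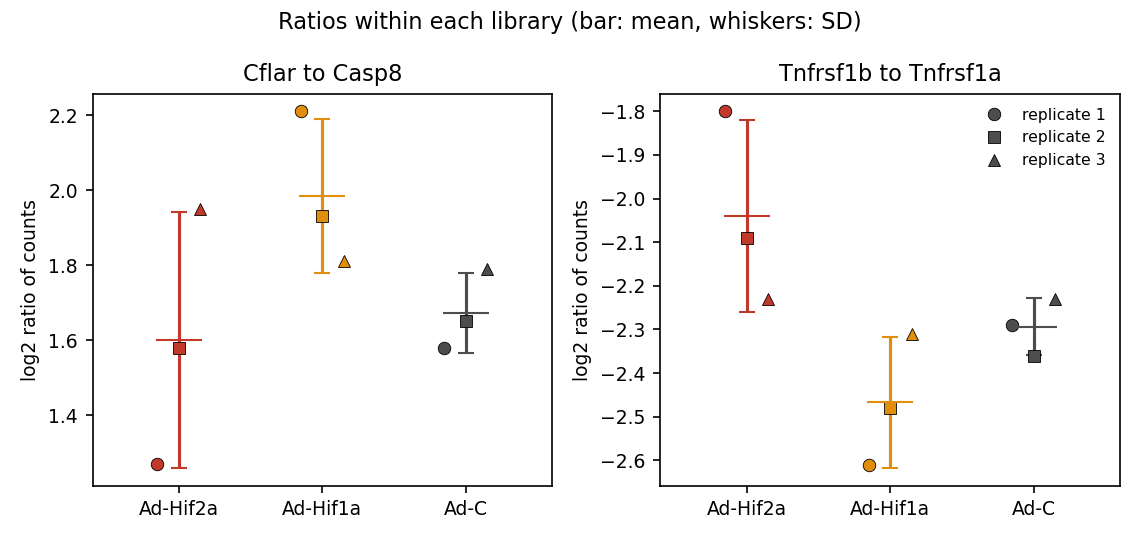
Log2 ratio of Cflar to Casp8 counts (left) and of Tnfrsf1b to Tnfrsf1a counts (right) within each library, for Ad-Hif2a, Ad-Hif1a and Ad-C, with the group mean as a bar and the SD as whiskers. The Ad-Hif1a libraries lie above Ad-C on the left, and the Ad-Hif2a libraries lie above the Ad-Hif1a libraries on the right.

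Between Ad-Hif2a and Ad-Hif1a no gene of the 10 passed, and neither did any other gene (0% higher and 0% lower of all genes tested). At an unadjusted p below 0.05 edgeR counted 338 genes (2.35%), Tnfrsf1b being the single one of the 10, and DESeq2 called 19 genes at the adjusted threshold and none of the 10. Without the 2 libraries that stood apart edgeR called 11 genes, again none of the 10. The median log2 difference was 0.07 over the 10 genes and 0 over all genes tested. That comparison did not call Epas1 (log2 difference 1.64, adjusted p = 1) or Hif1a (-1.75, adjusted p = 0.823) either, although the libraries of the 2 viruses did not overlap for these genes, so a missing call there says little about likeness of the 2 viruses.

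**Figure D4:**
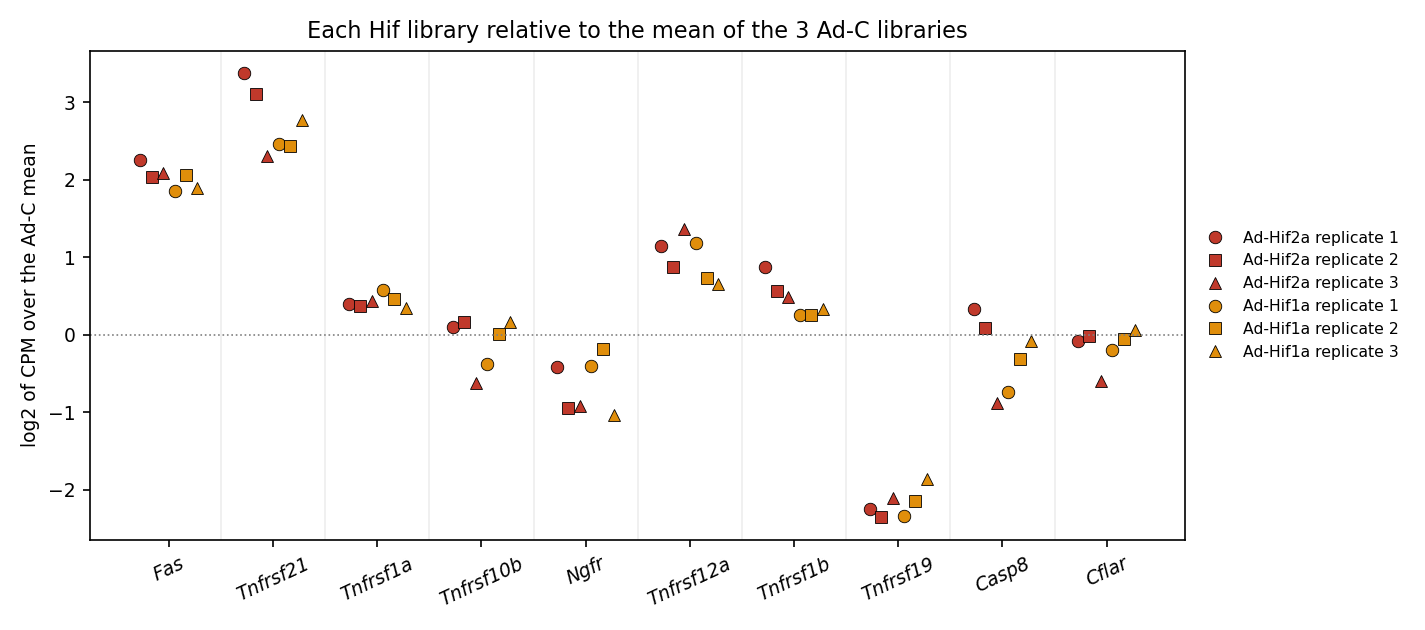
Log2 of the CPM of each gene in each of the 6 Hif libraries over the mean of the 3 Ad-C libraries, with Ad-Hif2a in red and Ad-Hif1a in orange and 1 symbol per replicate number. For Tnfrsf10b, Casp8 and Cflar the lowest point of each colour belongs to Ad-Hif2a replicate 3 or Ad-Hif1a replicate 1, and for Tnfrsf12a and Tnfrsf1a the highest point does.

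Ad-Hif2a replicate 3 and Ad-Hif1a replicate 1 thus moved several of the genes together, as the plot of single Hif libraries over the Ad-C mean shows. Both were the lowest of their group for Casp8, Cflar and Tnfrsf10b and the highest for Tnfrsf12a and Tnfrsf1a. The summed level of Hif1a and Epas1 was 1270 CPM in Ad-Hif2a replicate 3 and 1650 CPM in Ad-Hif1a replicate 1, and between 2410 and 3000 CPM in the other Hif libraries. The part of the vector level or of RNA quality in these values was not tested.

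Per kilobase of the longest protein-coding transcript (GENCODE M21 basic set), the order of the genes differed between the Hif viruses and Ad-C. In Ad-Hif2a libraries Tnfrsf12a (79.4 CPM per kb) and Fas (75.8) led, followed by Tnfrsf1a (66.5) and, at some distance, Tnfrsf21 (21.2). The libraries of Tnfrsf12a overlapped with those of Fas and of Tnfrsf1a, while Fas and Tnfrsf1a were apart. In Ad-Hif1a libraries Tnfrsf1a (69.7 CPM per kb), Fas (66.8) and Tnfrsf12a (66.3) led and overlapped in turn. With Ad-C the first place was held by Tnfrsf1a (50.4 CPM per kb), apart from Tnfrsf12a (36.1), while Fas (17.4) and Tnfrsf21 (2.65) stood lower. Tnfrsf19 stood at 2.22 CPM per kb with Ad-Hif2a, 2.43 with Ad-Hif1a and 10.5 with Ad-C, and Ngfr was the lowest in every group (0.287, 0.339 and 0.481). Of the neighbours in the Ad-C order, only Tnfrsf10b (19) and Cflar (18.5) overlapped, and in Ad-Hif2a libraries Tnfrsf21, Tnfrsf10b, Cflar, Casp8 and Tnfrsf1b formed an unbroken run of overlapping neighbours. These ranks depend on the transcript used, since the annotated coding transcripts run from 532 to 1481 nt for Fas and from 1771 to 6572 nt for Cflar.

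The genes whose pattern over the 9 libraries was most like that of Fas were Or5m3b (r = 0.998), annotated as an olfactory receptor gene, and the neutrophil-attracting chemokines Cxcl5 (r = 0.9978) and Cxcl1 (r = 0.9977), by Pearson correlation of log2 CPM among 14412 other genes. For Tnfrsf19 they were Trpm6 (r = 0.9959), a magnesium channel, Rarres1 (r = 0.9957), a gene induced by retinoids, and Cnmd (r = 0.9935), which encodes chondromodulin of cartilage. The 9 points fall into Hif libraries and Ad-C libraries, so any gene with a strong and even response to both viruses reaches such a value. Cxcl5 rose by 9.80 on the log2 scale with Ad-Hif2a and 8.90 with Ad-Hif1a, while Fas rose far less, so the likeness is of shape and not of size.

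Ligands of the family were measured in the same libraries. Of 15 tested genes in the list of TNF family ligands and neurotrophins, 4 were higher and 1 was lower with Ad-Hif2a, and 4 were higher and 2 were lower with Ad-Hif1a, with list medians of 0.39 and 0.56. The share of all genes called was 15.6% with Ad-Hif2a and 11.3% with Ad-Hif1a. Tnfsf11 (RANKL), the osteoclast-forming ligand, measured 45.7, 46.4 and 36.7 CPM with Ad-Hif2a, 30, 35.7 and 38.1 CPM with Ad-Hif1a, against 0.827, 0.952 and 1.82 CPM with Ad-C (log2 fold changes 5.19 and 4.85). Tnf, the ligand of Tnfrsf1a and Tnfrsf1b, measured 10.8, 13.4 and 13.8 CPM with Ad-Hif2a, 10.1, 12 and 11.1 CPM with Ad-Hif1a, against 5.24, 6.44 and 6.94 CPM with Ad-C (1.03, adjusted p = 0.00635, and 0.84, adjusted p = 0.018). Its groups did not overlap with Ad-C. Eda, the ectodysplasin ligand, fell by 1.88 with Ad-Hif2a and 1.32 with Ad-Hif1a on the log2 scale. On leaving out single libraries, the Tnf call was lost under 1 alternative for Ad-Hif2a and 5 for Ad-Hif1a, and the Eda call under 3 and 6.

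The ligands of Fas, Tnfrsf10b and Tnfrsf12a gave few counts or did not rise. Fasl, the ligand of Fas, had no count in any Hif library and 1 count in 1 Ad-C library, where a count of 0 allows up to 3 counts. Tnfsf10 (TRAIL), the ligand of Tnfrsf10b, had 13, 3 and 5 counts with Ad-Hif2a, 0, 3 and 1 counts with Ad-Hif1a and 25, 33 and 15 counts with Ad-C, and it fell with Ad-Hif1a (log2 fold change -3.96, adjusted p = 0.0288) and did not pass with Ad-Hif2a (-1.60, adjusted p = 0.152). Tnfsf12 (TWEAK), the ligand of Tnfrsf12a, measured 32.5, 24.8 and 45.2 CPM with Ad-Hif2a, 40.9, 27.8 and 27.6 CPM with Ad-Hif1a, against 34, 32.2 and 30.6 CPM with Ad-C (log2 fold changes 0.06 and -0.02, neither of which passed). These 3 ligands were named after their values were seen.

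In the list of other receptors of the family, 4 of 12 tested genes were higher and 1 was lower with Ad-Hif2a, and 2 were higher and 1 was lower with Ad-Hif1a (list medians 0.55 and 0.26). Here 15.6% and 11.3% of all genes were called. Without the 2 libraries that stood apart, 4 were higher and 2 were lower with Ad-Hif1a, where 27.6% of all genes were called, against 11.3% with all libraries. Tnfrsf9 (4-1BB), a costimulatory receptor of T cells, had 348, 178 and 164 counts with Ad-Hif2a, 114, 106 and 81 counts with Ad-Hif1a and 4, 10 and 5 counts with Ad-C (log2 fold changes 5.28 and 4.04). Cd40, the receptor by which B cells and macrophages receive T cell help, was 4.59-fold higher with Ad-Hif2a and 3.37-fold higher with Ad-Hif1a. Tnfrsf23, a mouse decoy receptor for TRAIL with a close paralog, Tnfrsf22, rose with Ad-Hif2a (1.06, adjusted p = 0.0328) and did not pass with Ad-Hif1a (0.93, adjusted p = 0.0585). Tnfrsf11a (RANK), the receptor of RANKL on osteoclast precursors, fell by 1.43 with Ad-Hif2a and 1.58 with Ad-Hif1a. On leaving out single libraries, the Tnfrsf23 call was lost under 6 alternatives, the Cd40 call for Ad-Hif1a under 3 and the Tnfrsf11a call for Ad-Hif2a under 1. Beside that stands the summed level of 12 macrophage markers, mostly Lyz2 (mean 2430 CPM with Ad-C). The sum was 1500 to 1780 CPM with Ad-Hif2a, 1440 to 1610 CPM with Ad-Hif1a, against 3330 to 3570 CPM with Ad-C. Of the 12, 6 were lower in each comparison and none higher, where 7.72% and 5.22% of all genes were lower. Adgre1 was among those that did not pass (log2 fold changes -0.02 with Ad-Hif2a and -0.21 with Ad-Hif1a). Macrophages also express Tnf, Tnfrsf1b, Cd40 and Fas, whose values are given above. In bulk RNA, fewer cells of a type and less RNA per cell cannot be told apart, and the part of macrophages in these results was not tested.

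A list of 23 genes held adaptors such as Fadd, Tradd, Ripk1 and the TRAF proteins, and ubiquitin ligases. It also held enzymes that remove ubiquitin (Cyld and Otulin) and kinases with their partners (such as Map3k7, Tab1, Ikbkb and Chuk). None of the 23 passed in the fit of all libraries in either comparison (medians 0.14 and 0.13), against 15.6% and 11.3% of all genes called. With Ad-Hif2a, Tnfaip3 came nearest (1.18, adjusted p = 0.0569), with all libraries above Ad-C. Without Ad-Hif1a replicate 1 and Ad-Hif2a replicate 3, 6 of the 23 were higher with each virus. In that setting 28.7% of all genes were called with Ad-Hif2a and 27.6% with Ad-Hif1a, so this count is no result about the list. Of 15 caspases and execution genes, 2 were higher and 1 was lower with Ad-Hif2a, and 1 was higher and 1 was lower with Ad-Hif1a (medians 0.35 and 0.20), against 15.6% and 11.3% of all genes called. Mlkl, the effector of necroptosis, rose with Ad-Hif2a (0.90, adjusted p = 0.00857), and with Ad-Hif1a it passed narrowly (0.59, adjusted p = 0.0491), a call lost under 11 of 17 alternatives, among them no composition factors and both other filters. Casp9, the initiator caspase of the mitochondrial route, fell with Ad-Hif2a (-0.89, adjusted p = 0.0123), a call lost under 4 alternatives, and passed narrowly with Ad-Hif1a (-0.64, adjusted p = 0.048), a call lost under 10. Cycs, which encodes cytochrome c, rose with Ad-Hif2a (0.72, adjusted p = 0.0428), a call lost under 7. The Mlkl call for Ad-Hif2a was lost under 2, without Ad-C replicate 1 or 3. Without the 2 libraries that stood apart, 6 of the 15 passed with each virus.

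In the BCL2 family, which controls the mitochondrial route to cell death, 2 of 15 genes were higher and 1 was lower with Ad-Hif2a, and 1 was lower with Ad-Hif1a (medians 0.35 and 0.21), against 15.6% and 11.3% of all genes called. Pmaip1 (Noxa), a pro-apoptotic member, rose with Ad-Hif2a (1.08, adjusted p = 0.0102). Bcl2l11 (Bim), another pro-apoptotic member, fell with both (-0.88 and -1.02). Bcl2a1d, an anti-apoptotic member, rose with Ad-Hif2a (1.14, adjusted p = 0.0443), but it has near-identical copies that share reads, so its value is uncertain. The Pmaip1 call was lost under 3 of 17 alternatives, the Bcl2l11 call under 6 for each virus and the Bcl2a1d call under 7. Without the 2 libraries that stood apart, 5 of 15 passed with Ad-Hif2a and 4 with Ad-Hif1a, where 28.7% and 27.6% of all genes were called.

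Among 7 tested genes in a list of coreceptors of Ngfr and their relatives, 2 were higher and 1 was lower with Ad-Hif2a. With Ad-Hif1a 2 were higher (medians -0.14 and 0.19). Of all genes tested, 15.6% and 11.3% were called. Ntrk2 (TrkB), the BDNF receptor, had 44, 26 and 21 counts with Ad-Hif2a, 12, 14 and 11 counts with Ad-Hif1a and 2, 1 and 2 counts with Ad-C. Sorcs1, listed as a sortilin relative, rose by 3.74 and 3.69 on the log2 scale, and its relative Sorcs2 did not pass (-0.14 and 0.19). Sort1 (sortilin), which pairs with Ngfr to bind proneurotrophins, fell with Ad-Hif2a (-1.09, adjusted p = 0.0245). Ngfr itself stayed between 12 and 37 counts in all 9 libraries. Without the 2 libraries that stood apart, 4 of the 7 passed with Ad-Hif1a, where 27.6% of all genes were called. The Sort1 call was lost under 5 of 17 alternatives and the Ntrk2 call for Ad-Hif1a under 4 of the 16 in which it was tested.

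**Figure D5:**
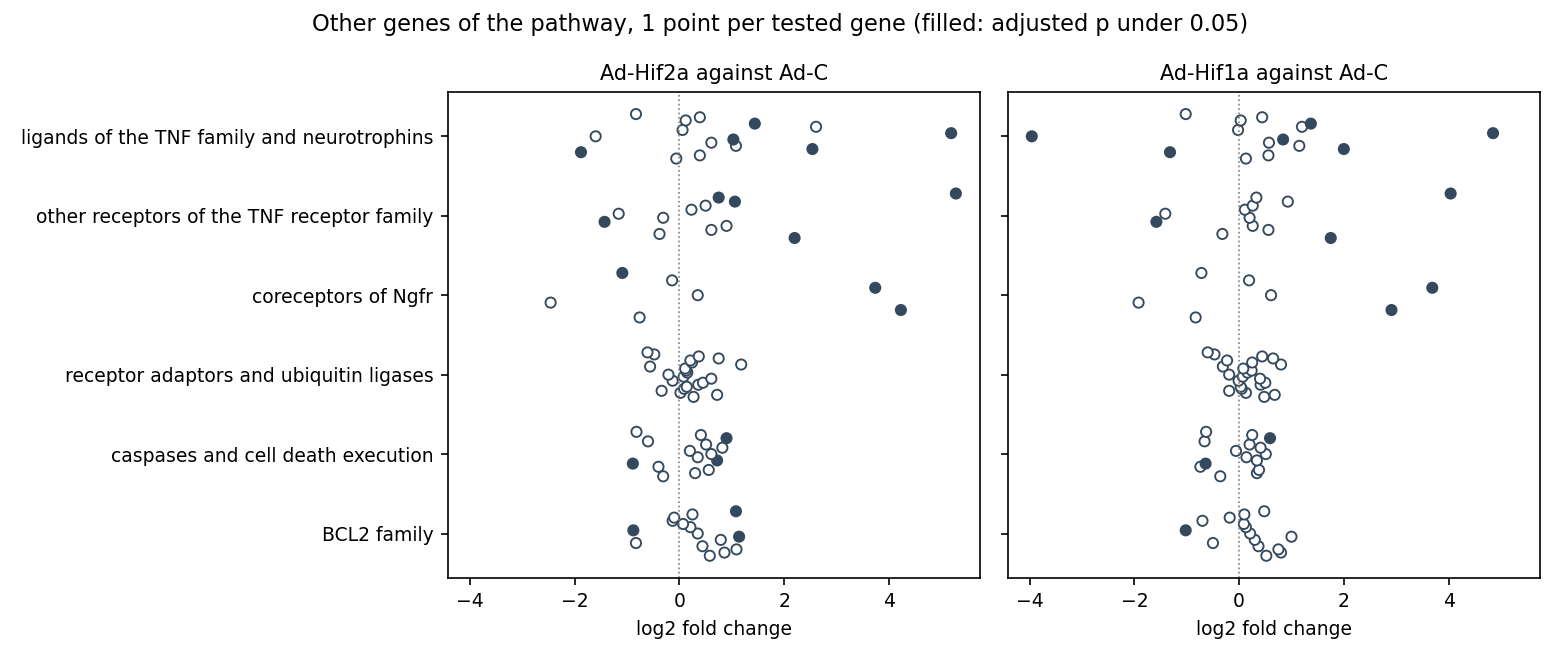
Log2 fold changes of the tested genes of 6 lists (ligands, other receptors, coreceptors of Ngfr, adaptors and ubiquitin ligases, caspases and execution genes, BCL2 family) for Ad-Hif2a against Ad-C (left) and Ad-Hif1a against Ad-C (right), 1 point per gene and filled where the adjusted p was below 0.05. The list of adaptors and ubiquitin ligases, which also holds kinases, has no filled point in either panel. The widest spread is in the lists of ligands, other receptors and coreceptors.

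Markers of other cells were read in the same way, where 15.6% of all genes were called with Ad-Hif2a and 11.3% with Ad-Hif1a. The osteoblast lineage list summed to 53100 to 62300 CPM with Ad-Hif2a, 60900 to 62800 CPM with Ad-Hif1a, against 68000 to 73500 CPM with Ad-C, mostly type I collagen, with 5 of 12 genes lower and 1 higher with Ad-Hif2a and 3 lower and 1 higher with Ad-Hif1a. The mature osteoblast marker Bglap averaged 1.34 ± 0.90 CPM with Ad-Hif2a, 1.12 ± 0.278 CPM with Ad-Hif1a, against 5.00 ± 0.929 CPM with Ad-C (SD, n = 3 each). The T cell markers Cd3e, Cd3d and Cd8a and the natural killer cell markers Ncr1 and Nkg7 had no count in any library. Cd4, the coreceptor of helper T cells and the single lymphocyte marker with enough counts to test, had 5, 4 and 8 counts with Ad-Hif2a, 2, 7 and 12 with Ad-Hif1a and 53, 63 and 47 with Ad-C, and it fell with both (log2 fold changes -3.10, adjusted p = 0.0112, and -2.95, adjusted p = 0.0159). The endothelial list summed to 240 to 346 CPM with Ad-Hif2a, 283 to 302 CPM with Ad-Hif1a, against 192 to 227 CPM with Ad-C, mostly Eng, which did not pass. With Ad-Hif2a 1 of its 4 tested genes was higher (Pecam1, with 13, 15 and 21 counts, against 0, 2 and 3 with Ad-C, adjusted p = 0.0162) and 1 was lower (Kdr, with 20, 21 and 2 counts, against 84, 80 and 67 with Ad-C, adjusted p = 0.0286), none passed with Ad-Hif1a, and Cldn5 was at 0 in every library. The part of these cells in the results was not tested. The neural and glial list, which bears on Ngfr and Tnfrsf19, summed to 25.1 to 55.2 CPM with Ad-Hif2a, 26.8 to 43.2 CPM with Ad-Hif1a, against 29.7 to 33.3 CPM with Ad-C. Of its 6 tested genes, 1 was lower with Ad-Hif2a and none passed with Ad-Hif1a. The sum hides opposite moves. S100b averaged 24.9 CPM with Ad-Hif2a, 20.8 with Ad-Hif1a and 12.2 with Ad-C, and Map2 averaged 2.76, 5.72 and 13.4 CPM. The skeletal muscle list summed to 6.6 to 10.1 CPM with Ad-Hif2a, 11.5 to 14.1 CPM with Ad-Hif1a, against 65.4 to 82.5 CPM with Ad-C, with 3 of 5 tested genes lower and 1 higher for each virus and Myod1 at 0 in every library. Most of the Ad-C sum came from Myh1 (mean 57.7 CPM) and Myh8 (11.7 CPM). Ckm, Ttn, Actn2 and Myog had at most 3 counts in any Ad-C library, so the sum is mainly that of 2 myosin genes. It moved in the same direction as Tnfrsf19. Acta1, the 1 gene that was higher, moved the other way (mean 4.01 CPM with Ad-Hif2a, 6.7 with Ad-Hif1a and 0.715 with Ad-C). The part of muscle cells in the Tnfrsf19 values was not tested.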

How the data were processed

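RNA of 9 libraries was analysed, 3 each from calvarial pre-osteoblasts infected with Ad-Hif2a, Ad-Hif1a or Ad-C, grouped by their sample labels. The authors deposited whole-number counts per gene symbol, 1 library per file, made from total RNA with the CORALL RNA-seq V2 kit. Builds and tools named in the submitters' processing notes are GRCm39, Salmon, STAR, fastp and bcl2fastq (2.20.0.422). How strand and multi-mapping reads were treated is not given in the sources used here. Of 40213 symbols, 15482 had no count in any library.

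Genes were filtered with filterByExpr and tested by edgeR (4.0.16, limma 3.58.1, R 4.3.3) with TMM factors, a robust quasi-likelihood fit of all 9 libraries with group and replicate number as terms, and Benjamini-Hochberg adjustment over 14413 genes. The replicate number was a term because the study names a paired test, although its own test on normalized values was not used. The count test was tried on simulated counts of genes that pass filterByExpr, for Ad-Hif2a against Ad-C. The other filters were not tried on simulated data. Ratios within a library were compared by exact permutation tests, two-sided. Log2 CPM for likeness and principal components used a prior count of 2. Alternatives were no replicate block, DESeq2 (1.42.0), RLE or no composition factors, no filter or at least 10 counts in every library, only the 6 libraries compared, and leaving out libraries. Named genes were the 10 genes taken by symbol, Hif1a and Epas1, up to 4 genes per pathway list with the lowest adjusted p below 0.05, the 3 genes most like Fas and Tnfrsf19, and marker genes at or near 0 or with most of a list's counts. A gene that this rule would name is not reported here. The genes and lists were chosen with earlier results of these data known. All 10 genes and 195 of 196 listed symbols were found, and promoters of 9 of the 10 genes were matched by symbol.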

Additional observations from a re-analysis of the deposited data

How the results depend on the processing

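Fas, Tnfrsf21 and Tnfrsf19 kept their direction and their call against Ad-C under all 17 alternatives for both viruses. The number of genes called for Ad-Hif2a against Ad-C was 2247, and it was 3452 with no replicate block, 3526 in DESeq2 and 688 to 4173 on leaving out libraries. For Ad-Hif1a against Ad-C it was 1624, with 2470 in DESeq2, 4706 in the fit of 6 libraries and 441 to 5330 on leaving out libraries. For Ad-Hif2a against Ad-Hif1a it was 0, with 2 genes with no replicate block, 2 with no filter, 19 in DESeq2 and 0 to 12 on leaving out libraries. The cause of these moves was not tested. Of the 10 genes, 5 passed for Ad-Hif2a, where 15.6% of all genes were called. On leaving out libraries it was 3 to 6, where 4.67% to 28.7% of all genes were called. The deviations of same-numbered libraries had correlations of -0.575 to 0.098. With 3 libraries a group, and with the 2 libraries that stood apart carrying different numbers, these values cannot show whether same-numbered libraries were paired. With no replicate block 6 of the 10 genes passed for Ad-Hif2a and 5 for Ad-Hif1a.

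On leaving out libraries, the sign of some values that never passed turned. The log2 fold changes ran from -0.30 to 0.21 (Ad-Hif2a against Ad-C), -0.30 to 0.13 (Ad-Hif1a against Ad-C) and -0.24 to 0.27 (Ad-Hif2a against Ad-Hif1a) for Tnfrsf10b. For Casp8 they ran from -0.44 to 0.25 (Ad-Hif2a against Ad-C) and -0.08 to 0.62 (Ad-Hif2a against Ad-Hif1a), for Cflar from -0.22 to 0.04 (Ad-Hif1a against Ad-C) and -0.27 to 0.05 (Ad-Hif2a against Ad-Hif1a), and for Ngfr from -0.51 to 0.17 (Ad-Hif2a against Ad-Hif1a). The log2 ratio of Cflar to Casp8 for Ad-Hif2a against Ad-C ran from -0.25 to 0.09, where the replicate block gave -0.07. Of 29 calls of named pathway genes, 10 held under every alternative in which they were tested, and 19 were lost under at least 1. Among the 10 were Tnfsf11, Tnfrsf9 and Sorcs1 with both viruses, Cd40 and Ntrk2 with Ad-Hif2a, and Tnfrsf11a with Ad-Hif1a. Tnfrsf9 and Ntrk2 were tested under 16 of the 17, since they fell below 10 counts in at least 1 library. The alternatives for these pathway genes were added after seeing the data. The scaling factors moved the median of all genes by at most 0.051 on the log2 scale. Depth limits Ngfr, Fasl, Tnfsf10 and Ntrk2, which had few counts per library.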
